A study of Rattus norvegicus with 18 samples.

Results

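The comparison described here asked whether the difference between rats on a high-fat diet (HFD) and on a normal diet (ND) was another one after 2 months of feeding than after 1 and 4 months. For each probe set the mean of the HFD minus ND differences at 1 and 4 months was subtracted from the HFD minus ND difference at 2 months, on the log2 scale, and the result is called the 2-month interaction below. It was formed from all 18 arrays of the series, 3 in each of 6 groups, and was computed for all 21729 tested probe sets, which represent 11446 named genes. A negative interaction means that HFD stood lower against ND at 2 months than at the other times.

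The RNA came from cultured bone marrow mesenchymal stem cells, grown out of plated whole marrow of Sprague-Dawley rats that were 6 weeks old when feeding began. ND was the basal feed at 100%. HFD held 60% basal feed, 20% lard, 10% sucrose and 10% egg yolk powder. The animals were fed for 1, 2 or 4 months, and no genotype or drug was varied. The sample labels give passage 3 and the series text passage 1, which could not be settled, and 3 arrays per group are not tied one by one to separate animals, so the p-values measure the spread between these arrays.

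Mesenchymal stem cells of the marrow adhere to plastic, can form bone, cartilage and fat cells, and feed the blood-forming cells around them with secreted factors. Among these is CXCL12, a chemokine that holds haematopoietic stem cells in the marrow. SFRP1 is a secreted protein that binds WNT ligands and so dampens WNT signalling, a pathway that favours bone formation over fat formation. Stromal cells also secrete C1r and C1s, the proteases that start the classical complement cascade.

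The arrays resembled each other closely, with correlations from 0.937 to 0.989 within groups and from 0.927 to 0.992 between groups. The span from the lowest to the highest array had a median of 1.51 log2 units over 16 stromal surface markers (0.42 to 4.21) and of 5.88 over 28 markers of macrophages (1.11 to 8.22), which also stick to plastic. The stromal marker Thy1 read 11.71 to 12.13 over the 18 arrays and Vcam1 2.56 to 6.77, while the lysosomal protein Cd68 of macrophages ranged from 4.53 to 10.78 and Cd86 from 2.47 to 4.36. Averaged over 25 macrophage and monocyte genes and set against the mean of all arrays, the level at 1 month was -1.32 ± 2.52 (SD, n = 3) under ND and -0.07 ± 0.87 under HFD, then 0.48 ± 1.97 and -1.18 ± 1.24 at 2 months, then 0.75 ± 0.97 and 1.33 ± 0.22 at 4 months. All 28 tested macrophage genes had a negative 2-month interaction, with a median of -2.68, and 0 of them passed the test. In bulk RNA, fewer cells of a type and less RNA per cell cannot be told apart.

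Very few genes showed a diet difference that could be tied to 2 months by the test of the difference itself. In limma, 5 of 21729 probe sets (0.023%) had a Benjamini-Hochberg adjusted p below 0.05. The HFD minus ND difference at 2 months was the higher one at 2 of them (0.0092%) and the lower one at 3 (0.0138%). They stood for Sfrp1, the WNT antagonist, with 2 probe sets, for Ccdc71l, a coiled-coil domain protein, and for 2 probe sets with no gene symbol. All 5 adjusted p-values lay between 0.0497 and 0.0499, close to the threshold. At an unadjusted p under 0.05 there were 2105 probe sets (9.69%), where chance gives 1086. The diet difference at 2 months taken alone had 552 calls (2.54%), 1.24% of probe sets higher and 1.3% lower, and a median standard error of 0.169 log2 units against 0.207 for the interaction. At 1 month and at 4 months taken alone there were 0 calls, with 2124 (9.77%) and 811 (3.73%) probe sets at an unadjusted p under 0.05.

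Sfrp1 was the gene with the lowest passing interaction. On the brightest of its probe sets the ND arrays read 10.08, 11.25 and 10.21 log2 units at 1 month, 11.09, 10.37 and 11.02 at 2 months, and 9.12, 9.61 and 8.91 at 4 months. The HFD arrays read 10.08, 9.51 and 10.27 at 1 month, 6.36, 6.51 and 7.91 at 2 months, and 10.08, 10.17 and 8.63 at 4 months. All 3 HFD arrays of 2 months lay below each of the 15 other arrays, whose lowest value was 8.63. The HFD arrays of 1 and 4 months overlapped with the ND arrays of the same time.

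The HFD minus ND difference of Sfrp1 was -0.56 ± 0.47 (SE) at 1 month, -3.90 ± 0.47 at 2 months, a 14.9-fold lower intensity, and 0.41 ± 0.47 at 4 months. The 2-month interaction was -3.83 ± 0.57 (limma, adjusted p = 0.0497). It drew on both diets, with the larger part from the HFD arrays. The ND arrays of 2 months all read above those of 4 months and overlapped with those of 1 month. A second Sfrp1 probe set gave -4.05 ± 0.60 (limma, adjusted p = 0.0497) and the third -3.05 ± 0.50 (limma, adjusted p = 0.0591), so the 3 probe sets of this gene had the same sign and a similar size. In a fit that held the macrophage list mean as a covariate, the brightest probe set stood at -3.81 (limma, adjusted p = 0.0712). Its size stayed between -4.32 and -3.54 when any 1 array was left out.

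**Figure D1:**
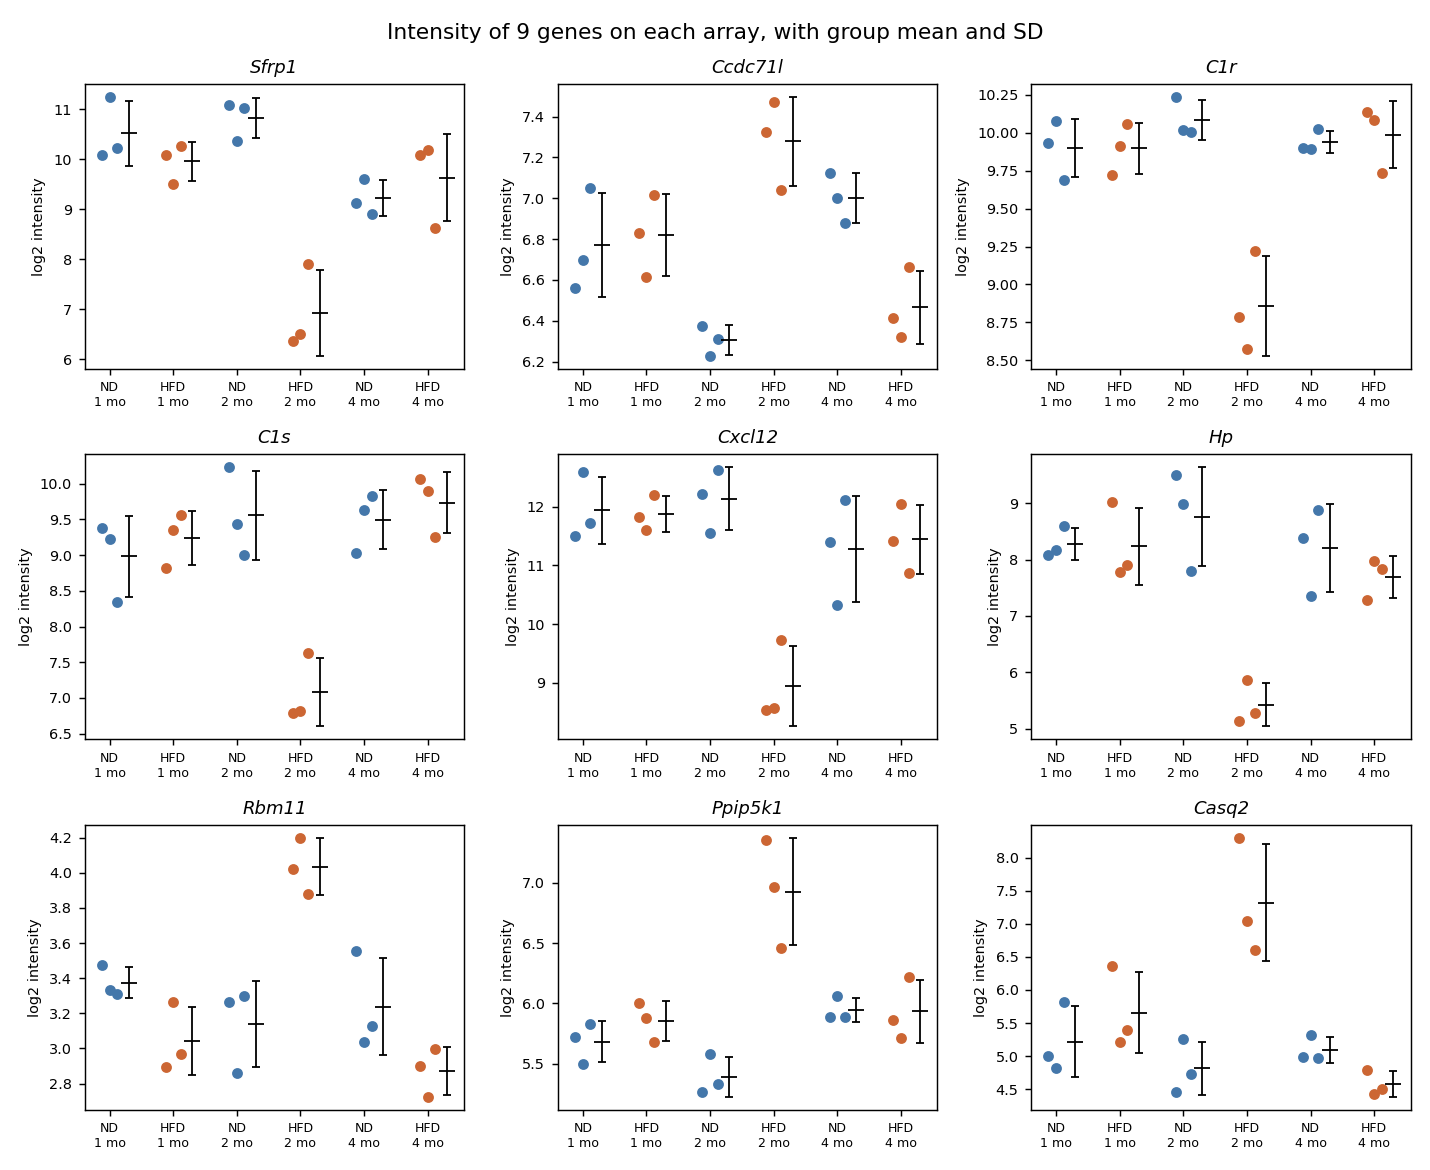
Log2 intensity of 9 genes on each of the 18 arrays, by diet (blue ND, orange HFD) and feeding time in months; each point is 1 array, and the black bars are the group mean and SD (n = 3). The 3 HFD arrays of 2 months stand apart from all other arrays for every gene shown except Ccdc71l, where 1 of them lies among the other arrays. The interaction itself chose these genes, so this is a description. Of all 21729 tested probe sets 442 separate in this way.

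Ccdc71l was the named gene that passed in the other direction. On its probe set the ND arrays read 6.56, 6.70 and 7.05 log2 units at 1 month, 6.38, 6.23 and 6.31 at 2 months, and from 6.88 to 7.12 at 4 months. The HFD arrays read 6.83, 6.61 and 7.02, then 7.33, 7.47 and 7.04, then 6.42, 6.32 and 6.66. The HFD arrays were thus above the ND arrays at 2 months, overlapped with them at 1 month and were below them at 4 months.

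The interaction of Ccdc71l was 1.22 ± 0.19 (limma, adjusted p = 0.0499). It drew on both diets: the HFD arrays were 0.64 higher at 2 months than at the mean of the other times (limma, adjusted p = 0.0505), while the ND difference was -0.58 (limma, adjusted p = 0.999). The HFD minus ND differences were 0.05, 0.97 and -0.53 at 1, 2 and 4 months, and the 4-month value lies on the other side of 0 from the 2-month value. The fit with the macrophage covariate gave 1.05 (limma, adjusted p = 0.0712).

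The other passing probe sets, 1392068_at and 1379465_at, carry no symbol in the platform annotation. Probe set 1392068_at read 3.09, 4.37 and 5.47 log2 units on the HFD arrays of 2 months and 6.56 to 8.92 on the other 15 arrays, with an interaction of -4.65 ± 0.66 (limma, adjusted p = 0.0497). Its HFD minus ND differences were 0.06, -4.15 and 0.94 at 1, 2 and 4 months. Probe set 1379465_at read 6.70, 6.25 and 5.46 on the HFD arrays of 2 months and 2.75 to 4.70 elsewhere, with an interaction of 3.17 ± 0.46 (limma, adjusted p = 0.0497) and diet differences of 0.29, 3.14 and -0.36. Both separate the HFD arrays of 2 months from every other array, as 442 of all 21729 tested probe sets did.

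The 5 calls depended on single arrays. Without any 1 of 13 arrays, 0 probe sets passed. Leaving out ND 1-month replicate 2 gave 5, HFD 1-month replicate 1 gave 2, HFD 1-month replicate 2 gave 3, HFD 4-month replicate 3 gave 10 and HFD 2-month replicate 3 gave 144. HFD 2-month replicate 3 was the array of its group nearest to the other groups for Sfrp1, C1r, C1s and Cxcl12. With array weights 838 passed, with quantile normalization 0, and with ND 1-month replicate 1 and ND 2-month replicate 3 both left out 545. In the macrophage list mean, ND 1-month replicate 1 stood at 1.49, against -2.06 and -3.40 for the others of its group. ND 2-month replicate 3 stood at -1.80, against 1.68 and 1.56. Without them the ND groups of 1 and 2 months thus differ more in this mean, and whether the 545 calls follow it was not tested.

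The genes next in order did not pass, and they include secreted proteins. By the rule of the largest moderated t in each direction, these were C1r, C1s, Cxcl12 and Hp on the negative side and Rbm11, Ppip5k1, Fpgt and Casq2 on the positive side. Among all probe sets the first outside the threshold was that of Rbm11, at an adjusted p of 0.0513 in limma, against 0.0499 for Ccdc71l just inside it.

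C1r and C1s encode the pair of proteases of the first complement component, and the genes are direct neighbours in the RefSeq annotation of the rat assembly GRCr8. C1r read 8.78, 8.58 and 9.22 log2 units on the HFD arrays of 2 months and 9.69 to 10.24 on the other 15 arrays. C1s read 6.79, 6.82 and 7.63 there and 8.34 to 10.23 elsewhere. For both genes the HFD arrays of 2 months were the lowest of all arrays.

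The HFD minus ND differences of C1r were -0.00, -1.23 and 0.05 at 1, 2 and 4 months, and its interaction was -1.25 ± 0.20 (limma, adjusted p = 0.0591). Those of C1s were 0.26, -2.48 and 0.24, and its interaction was -2.73 ± 0.45 (limma, adjusted p = 0.0591). Neither passed. Under that covariate C1r stood at -1.14 and C1s at -2.21, and neither passed either (limma, adjusted p = 0.0957 and 0.0860).

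Cxcl12, the niche chemokine, was among the brightest of these genes. Its ND arrays read 11.50, 12.59 and 11.73 log2 units at 1 month, 12.22, 11.56 and 12.63 at 2 months, and 11.40, 10.32 and 12.12 at 4 months. Its HFD arrays read 11.83, 11.59 and 12.20, then 8.53, 8.56 and 9.72, then 11.41, 12.05 and 10.87. The HFD arrays of 2 months were again below all others, while the arrays of the 2 diets overlapped at 1 and 4 months.

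The diet differences of Cxcl12 were -0.07 ± 0.47, -3.20 ± 0.47 and 0.16 ± 0.47 (SE), and its interaction of -3.25 ± 0.57 did not pass (limma, adjusted p = 0.0776). Under the covariate it stood at -3.60 (limma, adjusted p = 0.0712). Hp encodes haptoglobin, which binds free haemoglobin. It read 5.14, 5.86 and 5.28 on the HFD arrays of 2 months and 7.28 to 9.51 on the others, and its interaction was -3.06 ± 0.56 (limma, adjusted p = 0.0945). Its diet differences were -0.04, -3.34 and -0.51.

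On the positive side, Rbm11, an RNA-binding splicing regulator, read 4.02, 4.20 and 3.88 log2 units on the HFD arrays of 2 months and 2.72 to 3.55 on the others, near the level of 3.22 below which probe sets were left out. Its interaction was 1.24 ± 0.19 (limma, adjusted p = 0.0513). Ppip5k1, an inositol pyrophosphate kinase, read 7.35, 6.97 and 6.46 against 5.26 to 6.22, with an interaction of 1.46 ± 0.24 (limma, adjusted p = 0.0591). Both genes thus had their highest 3 arrays in this group.

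Casq2, the calcium store protein of heart muscle, read 8.30, 7.05 and 6.60 log2 units on the HFD arrays of 2 months and 4.43 to 6.36 on the others. Its diet differences were 0.44, 2.50 and -0.52, and its interaction was 2.54 ± 0.49 (limma, adjusted p = 0.127). Fpgt, an enzyme of fucose salvage, read 6.10, 6.61 and 6.49 against 5.63 to 6.25, so 1 of its 3 arrays lay within the range of the others. Its interaction was 0.95 ± 0.16 (limma, adjusted p = 0.0760).

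Promoters, from 250 bases before to 50 bases after the RefSeq start site in GRCr8, were looked up for these 10 genes and found for 6. The 3 printed here are those of the passing gene Ccdc71l and of 2 secreted-factor genes with low readings in the HFD arrays of 2 months; capitals mark matches to the motifs searched on both strands.
Ccdc71l, chr6:54687224-54687523, plus strand: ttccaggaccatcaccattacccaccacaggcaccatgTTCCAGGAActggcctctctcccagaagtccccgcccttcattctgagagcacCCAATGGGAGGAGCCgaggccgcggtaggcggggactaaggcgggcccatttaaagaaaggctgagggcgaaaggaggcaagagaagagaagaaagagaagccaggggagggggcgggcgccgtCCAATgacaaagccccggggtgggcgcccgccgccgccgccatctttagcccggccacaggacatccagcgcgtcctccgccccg
C1r, chr4:159098763-159099062, plus strand: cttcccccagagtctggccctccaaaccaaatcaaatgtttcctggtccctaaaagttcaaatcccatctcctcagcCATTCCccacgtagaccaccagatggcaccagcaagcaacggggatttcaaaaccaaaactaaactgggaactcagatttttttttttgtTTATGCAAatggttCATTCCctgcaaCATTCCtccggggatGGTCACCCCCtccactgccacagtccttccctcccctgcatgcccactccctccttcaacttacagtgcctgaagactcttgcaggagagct
Cxcl12, chr4:152060531-152060830, plus strand: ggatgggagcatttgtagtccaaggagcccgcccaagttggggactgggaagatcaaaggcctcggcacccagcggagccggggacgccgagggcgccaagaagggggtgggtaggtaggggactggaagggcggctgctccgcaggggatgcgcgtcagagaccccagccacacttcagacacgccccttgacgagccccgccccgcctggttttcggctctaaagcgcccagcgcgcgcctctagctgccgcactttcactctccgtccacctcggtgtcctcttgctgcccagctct

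The Ccdc71l promoter held 1 STAT match, 2 NF-Y matches and 1 NF-kB match, which lies directly beside an NF-Y match without sharing bases. That of C1r held 1 C/EBP match, 3 MCAT matches and 1 NF-kB match, and that of Cxcl12 held none of the motifs. Of all 33469 promoters of this length in the table, 8.87% held the STAT motif, spelled TTCNNNGAA, and 37.5% held the NF-Y motif, spelled CCAAT. The C/EBP motif, spelled TTGCNNAA, occurred in 10.6% and the MCAT motif, spelled CATTCC, in 14.2%. The NF-kB motif was found in 47.3%. The motifs not found in these 3 promoters were AP-1, spelled TGANTCA, which 7.33% of promoters held, the TATA box, spelled TATAAA, which 14.2% held, and the CArG box of SRF, which 1.64% held. A match describes letters in this window only.

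The interaction can be split exactly into 2 arms: what the HFD arrays did at 2 months against their own 1 and 4 months, minus what the ND arrays did. In the HFD arm limma called 102 of 21729 probe sets (0.469%), of which 49 (0.226%) rose and 53 (0.244%) fell at 2 months. In the ND arm 0 passed (0%), with a lowest adjusted p of 0.844 and 844 probe sets (3.88%) at an unadjusted p under 0.05, against 2927 (13.5%) in the HFD arm. Passing in 1 arm and not in the other is not a test of their difference, which is the interaction with its 5 calls. For the 102 probe sets the median size of the HFD arm was 1.18 log2 units and that of the ND arm 0.16; since the first chose them, this is a description.

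**Figure D2:**
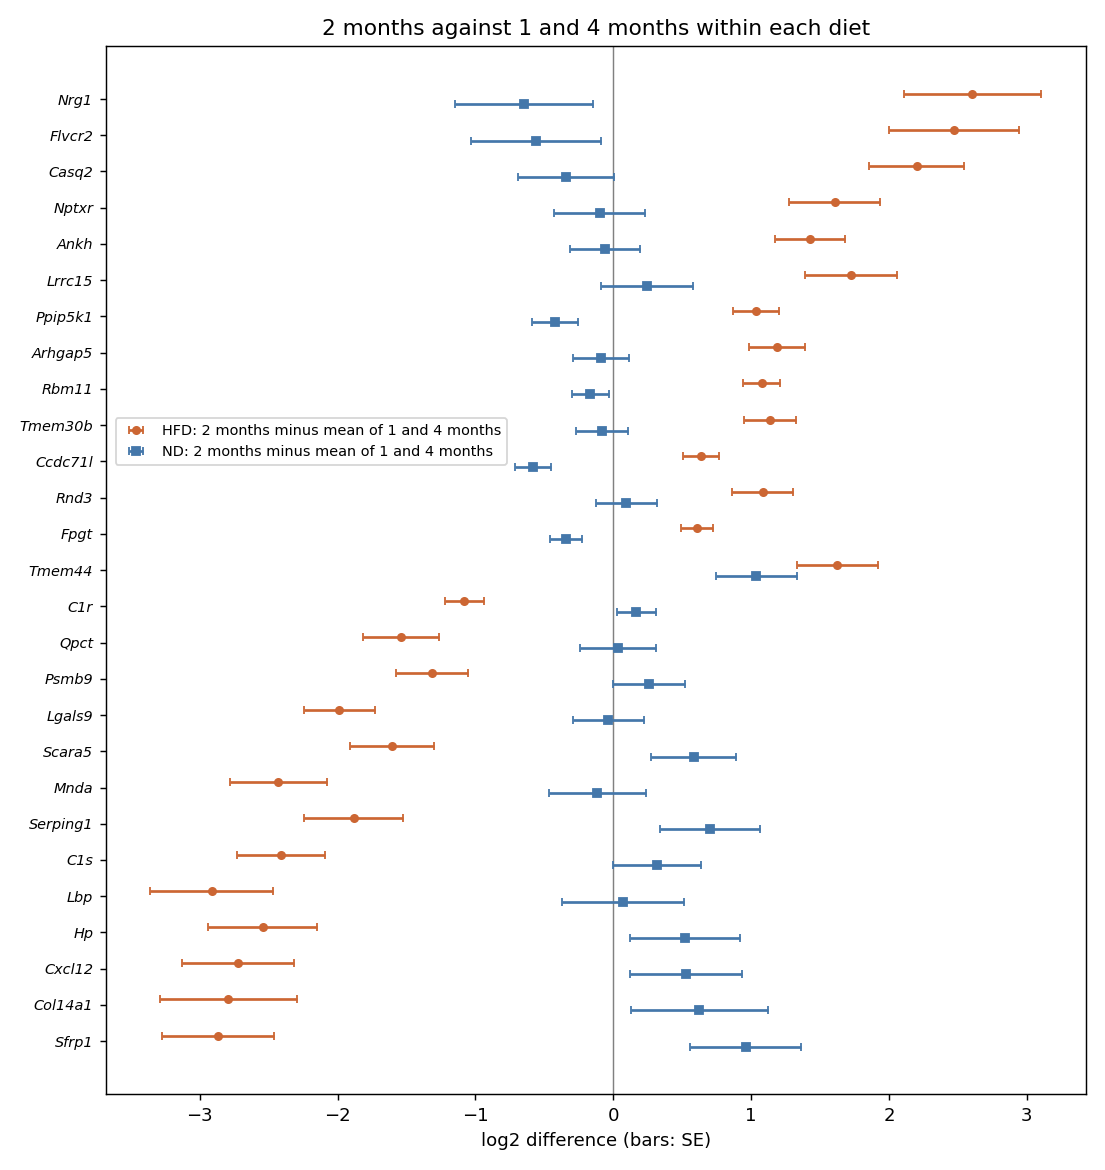
Log2 difference between 2 months and the mean of 1 and 4 months for the genes named by rule in the interaction or in the HFD arm, in the HFD arrays (orange circles) and the ND arrays (blue squares); bars are SE. The HFD values reach from -2.91 for Lbp to 2.60 for Nrg1, and the ND values from -0.65 for Nrg1 to 1.04 for Tmem44.

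The HFD arrays of 2 months stood outside the range of all 15 other arrays at 442 probe sets, 212 below (0.976%) and 230 above (1.06%). The ND arrays of 2 months did so at 26 below (0.12%) and 28 above (0.129%). These counts carry no test. For genes named by the interaction or the HFD arm such separation is a description, since those contrasts chose them.

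In the HFD arm 27 named genes rose and 30 fell. The 12 with the largest falls were Lbp, Sfrp1, Col14a1, Cxcl12, Hp, Mnda, C1s, Lgals9, Serping1, Scara5, Qpct and Psmb9. Lbp, which binds bacterial lipopolysaccharide, read 5.83, 5.17 and 5.86 log2 units on the HFD arrays of 2 months and 7.08 to 9.33 on the other arrays, and fell by 2.91 in this arm (limma, adjusted p = 0.0169). Its interaction was -2.98 ± 0.63 (limma, adjusted p = 0.166), which did not pass.

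Col14a1, a fibril-associated collagen, read 6.91, 7.50 and 9.96 log2 units on the HFD arrays of 2 months, against 10.05 to 11.70 elsewhere. The third of these arrays nearly reached the others. It fell by 2.79 in the HFD arm (limma, adjusted p = 0.0340), and its interaction was -3.42 ± 0.70 (limma, adjusted p = 0.166). With the macrophage covariate the fall in the HFD arm was no longer called, at -2.50 (limma, adjusted p = 0.0634).

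Mnda, an interferon-inducible nuclear protein, fell by 2.43 in the HFD arm (limma, adjusted p = 0.0113), reading 4.08, 3.55 and 5.05 against 5.52 to 7.35 elsewhere. Lgals9, the lectin galectin-9, fell by 1.99 (limma, adjusted p = 0.00705), reading 3.21, 4.05 and 3.51 against 4.72 to 6.67. In both genes the 3 HFD arrays of 2 months were the lowest of all. Scara5, a ferritin receptor, fell by 1.60 (limma, adjusted p = 0.0399), reading 7.93, 7.43 and 7.64 against 8.52 to 10.53.

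Serping1, the inhibitor of C1r and C1s, fell by 1.88 in the HFD arm (limma, adjusted p = 0.0399), together with C1s by 2.41 and C1r by 1.08 (limma, adjusted p = 0.00705 for each). Qpct, an enzyme that modifies the ends of secreted peptides, fell by 1.54 (limma, adjusted p = 0.0340). Psmb9, an immunoproteasome subunit, fell by 1.32 (limma, adjusted p = 0.0408). These 3 complement genes are thus a protease pair and its inhibitor, all lower in HFD at 2 months than at its other times.

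The 12 genes with the largest rises in the HFD arm were Nrg1, Flvcr2, Casq2, Lrrc15, Tmem44, Nptxr, Ankh, Arhgap5, Tmem30b, Rnd3, Rbm11 and Ppip5k1. Nrg1, a ligand of the ERBB receptors, read 8.86, 8.78 and 7.61 log2 units on the HFD arrays of 2 months and 4.88 to 7.98 on the others, with a rise of 2.60 (limma, adjusted p = 0.0399). Flvcr2, a transporter of the FLVCR family, read 7.87, 7.82 and 5.39 against 3.29 to 5.13, and rose by 2.47 (limma, adjusted p = 0.0399). The third HFD array lay nearer to the other groups in both genes, and within their range for Nrg1.

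Ankh, which carries the mineralization inhibitor pyrophosphate out of the cell, read 8.73, 9.40 and 8.88 log2 units on the HFD arrays of 2 months and 7.05 to 8.20 elsewhere. It rose by 1.43 in the HFD arm (limma, adjusted p = 0.0340), and its interaction was 1.49 ± 0.36 (limma, adjusted p = 0.176). Casq2 rose by 2.20 (limma, adjusted p = 0.0193). Lrrc15, a membrane protein of stromal cells, rose by 1.73 (limma, adjusted p = 0.0399), with 7.23, 7.11 and 6.95 against 3.99 to 7.04. Tmem44, a transmembrane protein, rose by 1.63 in the HFD arm while the ND arm stood at 1.04, and its interaction of 0.59 did not pass (limma, adjusted p = 0.654).

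The count of 102 also rested on single arrays. Of the HFD arrays of 2 months, dropping replicate 1 left 0, dropping replicate 2 left 3 and dropping replicate 3 gave 715. Of the HFD arrays of 4 months, dropping replicates 1, 2 and 3 gave 18, 14 and 56, and of those of 1 month, dropping replicates 2 and 3 gave 25 and 21. Leaving out an ND array moved it as well, through the shared estimate of the spread, to 38, 39 and 61 without ND 2-month replicate 1, 2 and 3, and to 29 without ND 4-month replicate 1.

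The WNT list had 1 passing member. Of its 17 tested genes Sfrp1 fell in the interaction, where 0.0138% of all probe sets fell, and 16 did not pass, and the list median was -0.11, against -0.00 for all tested named genes. Sfrp2 and Sfrp5, of the same family as Sfrp1, had interactions of 0.11 and -0.11. Frzb, another secreted WNT antagonist, stood at -1.44 ± 0.28 (limma, adjusted p = 0.140); the ND arrays of 2 months read 4.97, 4.03 and 4.10 log2 units and its HFD arrays of 2 months 3.35, 2.90 and 3.14, so its value came more from the ND arm (1.16) than from the HFD arm (-0.28). Axin2, a feedback target of WNT signalling, rose by 0.60 in the HFD arm (limma, adjusted p = 0.0413), and its interaction was 0.59 (limma, adjusted p = 0.279).

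Of the 15 tested haematopoietic niche factors 0 passed in the interaction, 8 were negative, and the median was -0.29. Cxcl12 was the member that fell in the HFD arm, where 0.244% of all probe sets fell. Angpt1, a ligand of the TEK receptor, read 4.18, 5.39 and 3.95 log2 units on the HFD arrays of 2 months and 5.69 to 7.96 on the others, with an interaction of -2.43 ± 0.71 (limma, adjusted p = 0.294). Kitlg, the stem cell factor, stood at -0.52, and Vcam1, an adhesion molecule, at 1.08, so the members did not share a direction.

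Complement genes stood lower in HFD at 2 months in most members. Of 14 tested genes 13 had a negative interaction, with a median of -2.15, and 0 passed. The list median was -1.35 in the HFD arm and 0.49 in the ND arm, where all 14 genes were positive. Relative to the average over arrays, the mean of 11 complement genes was -1.03, -1.44 and -0.45 on the HFD arrays of 2 months. The arrays overlapped in this mean, with ND 4-month replicate 1 at -0.81 and ND 2-month replicate 3 at -0.44. The list's median HFD minus ND difference was 0.04 at 1 month, -1.18 at 2 months and 0.43 at 4 months. In the HFD arm 3 members fell, C1s, C1r and Serping1, against 0.244% of all probe sets. C3, the central complement protein, stood at -5.13 (limma, adjusted p = 0.393) and Cfd, complement factor D, at -3.16 (limma, adjusted p = 0.451).

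The macrophage markers moved in the same direction, with the group means given above, and 3 of the 14 complement genes, C1qa, C1qb and C1qc, are also on the macrophage list. With the macrophage list mean as a covariate the complement median went from -2.15 to -0.21, with 9 of 14 genes negative. For single members, Serping1 stood at -2.59 in the main fit and at -2.85 with the covariate (limma, adjusted p = 0.108). In the HFD arm C1s and Serping1 passed with the covariate (limma, adjusted p = 0.0132 and 0.0430).

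All 18 tested acute phase and innate secreted proteins had a negative interaction, against 5779 of 11446 named genes, with a median of -1.46. The medians of the diet difference were 0.55, -1.24 and 0.15 at 1, 2 and 4 months. The list median was -1.15 in the HFD arm and 0.22 in the ND arm. Relative to the average over arrays, the mean of 13 of these genes was -1.37, -0.77 and -1.48 on the HFD arrays of 2 months. ND 1-month replicate 3 lay within that range, at -0.94. 0 passed in the interaction, and Hp and Lbp fell in the HFD arm, where 0.244% of all probe sets fell. The iron carrier Lcn2 stood at -4.14 (limma, adjusted p = 0.537), the protease inhibitor A2m at -3.16 (limma, adjusted p = 0.318) and Il1rn, which blocks interleukin-1, at -2.31 (limma, adjusted p = 0.291). With the macrophage covariate the median was -0.56 and 13 genes were negative. The macrophage list shares 1 gene, Cd14, with this one.

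**Figure D3:**
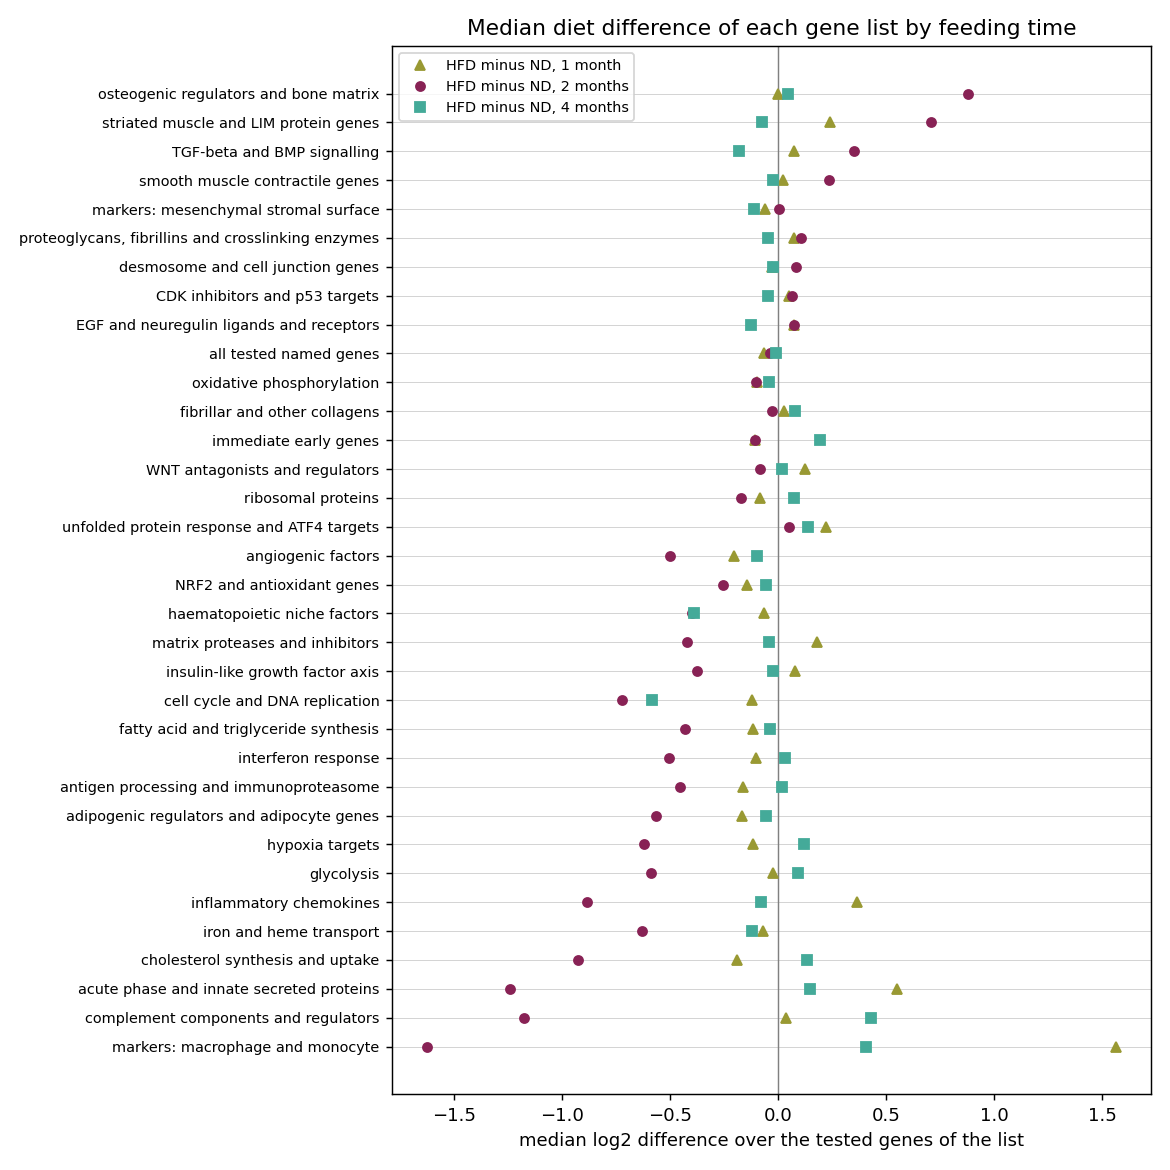
Median log2 HFD minus ND difference over the tested genes of each list at 1 month (triangles), 2 months (circles) and 4 months (squares), ordered by the median interaction. The complement list stands at 0.04, -1.18 and 0.43 and the osteogenic list at -0.00, 0.88 and 0.05, while all tested named genes lie near 0 at each time.

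All 19 tested genes of cholesterol synthesis and uptake had a negative interaction. The median was -0.87, and 15 of the 19 had an unadjusted p under 0.05 in limma, against 10.1% of all named genes. After adjustment 0 passed in the interaction and 0 in the HFD arm. The median diet difference was -0.19 at 1 month, -0.93 at 2 months and 0.13 at 4 months. Both diets entered the interaction: the list median was -0.58 in the HFD arm and 0.25 in the ND arm, where all 19 genes were positive. Insig1, the sterol-regulated brake on this pathway, read 7.99, 8.79 and 9.44 log2 units on the HFD arrays of 2 months and 9.11 to 10.50 on the others; it has no value on ND 1-month replicate 1. Its interaction was -1.63 ± 0.39 (limma, adjusted p = 0.182).

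Along the pathway, the synthase Fdft1 stood at -1.10, the epoxidase Sqle at -1.17, the demethylase Cyp51 at -1.08 and the final reductase Dhcr7 at -1.29, none of them passing. The transcription factor of the pathway, Srebf2, stood at -0.51. The mean of the 11 cholesterol genes with a value on every array was -1.01, -0.60 and -0.06 on the HFD arrays of 2 months, relative to the average over arrays. The third of them lay among the other groups. With the macrophage covariate the list median was -0.53, and all 19 genes stayed negative.

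**Figure D4:**
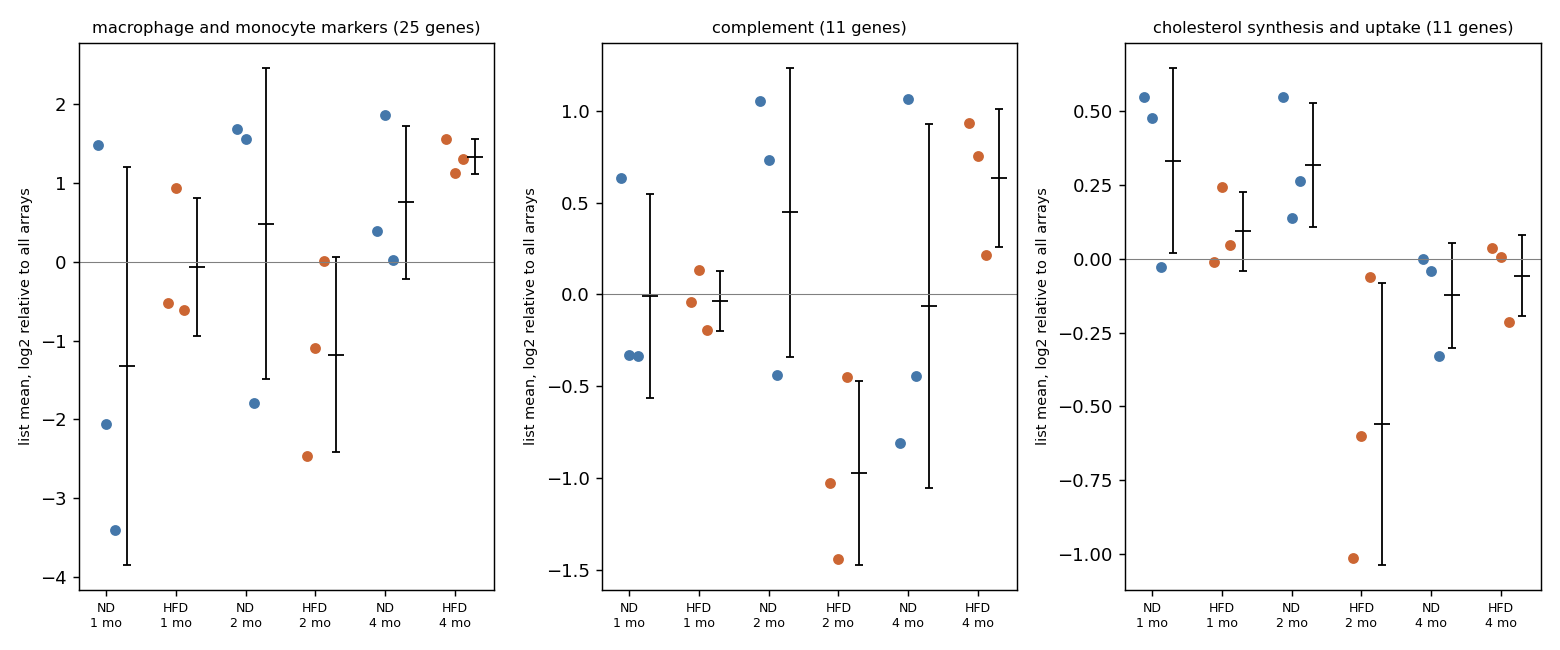
Mean of 3 gene lists on each array, in log2 units relative to the average over all arrays (blue ND, orange HFD; bars are group mean and SD, n = 3). The macrophage mean varies within the ND groups of 1 and 2 months as widely as between groups, while the cholesterol mean is lowest on HFD arrays of 2 months, at -1.01 and -0.60.

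Other lipid and fat cell genes shared the direction with smaller values. Of 20 genes of fatty acid and triglyceride synthesis 15 were negative, with a median of -0.41, and of 17 adipogenic and adipocyte genes 16 were negative, with a median of -0.53. None of either list passed in the interaction. Cebpd, an early adipogenic transcription factor, fell by 1.21 in the HFD arm (limma, adjusted p = 0.0399) and had an interaction of -1.49 ± 0.33 (limma, adjusted p = 0.166). Pparg, the main regulator of fat cell formation, stood at -0.20 (limma, adjusted p = 0.974). Their medians under the macrophage covariate were -0.54 and -0.69.

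Genes of the bone lineage stood on the other side. Of 14 tested osteogenic genes 12 had a positive interaction, with a median of 1.01, and 0 passed in the interaction. Ankh was the member that rose in the HFD arm, where 0.226% of all probe sets rose. The medians of the diet difference were -0.00, 0.88 and 0.05 at 1, 2 and 4 months, and with the macrophage covariate the interaction median was 0.74.

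The mean of 10 osteogenic genes was 0.64, 0.63 and 0.48 on the HFD arrays of 2 months, and the highest of the other 15 arrays stood at 0.14. Enpp1, which makes extracellular pyrophosphate, read 11.21, 11.64 and 10.64 log2 units there and 8.16 to 10.26 elsewhere, with an interaction of 1.61 ± 0.48 (limma, adjusted p = 0.294). Ibsp, the bone sialoprotein, stood at 3.30 ± 1.05 (limma, adjusted p = 0.334), with 1 ND array of 1 month without a value. Col1a1 and Col1a2, the chains of the main bone collagen, stood at -0.00 and 0.05.

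Muscle genes and genes of the TGF-beta pathway also had mostly positive interactions. Of 14 striated muscle and LIM protein genes 11 were positive, with a median of 0.63. Casq2 was the member that rose in the HFD arm, where 0.226% of all probe sets rose. Fhl1, a LIM protein, read 11.80, 11.07 and 10.66 log2 units on the HFD arrays of 2 months and 6.75 to 9.84 on the others, with an interaction of 2.06 ± 0.68 (limma, adjusted p = 0.347). Acta1, skeletal muscle actin, stood at 2.38 (limma, adjusted p = 0.294). Of 19 smooth muscle genes 18 were positive with a median of 0.26, and of 32 TGF-beta and BMP genes 23 with a median of 0.36. The macrophage covariate moved these medians to 0.12, with 8 of 19 negative, and 0.24, with 9 of 32 negative, and that of the striated list to 0.72. With the dimmest 50% of probe sets left out, the striated median was 0.26 over 9 genes. The TGF-beta and BMP median was 0.07 in the HFD arm and -0.19 in the ND arm, where 23 of 32 genes were negative. An unadjusted interaction p under 0.05 was found in limma for 5 striated, 1 smooth muscle and 9 TGF-beta and BMP genes. Among all named genes the share was 10.1%. No striated muscle, smooth muscle, TGF-beta or BMP gene of these lists passed in the interaction.

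Glycolysis and hypoxia genes were mostly negative, but their medians changed sign with the macrophage covariate. Of 18 glycolysis genes 17 were negative, with a median of -0.62 that went to 0.14 with the covariate. Of 22 hypoxia targets 19 were negative, with a median of -0.59 that went to 0.16. Ero1a, an oxidase of the secretory pathway and a hypoxia target, fell by 1.07 in the HFD arm (limma, adjusted p = 0.0399), with an interaction of -1.11 (limma, adjusted p = 0.239). Inflammatory chemokines went from -0.80 to 0.16.

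Interferon response and antigen processing genes had medians of -0.44 (20 of 23 negative) and -0.45 (14 of 15 negative), which were -0.28 and -0.27 with the covariate. Iron and heme transport genes had a median of -0.81, with 15 of 16 negative and Flvcr2, at 3.03 ± 0.67, as the exception (limma, adjusted p = 0.166). The macrophage covariate moved this median to -0.23, with 10 of 16 negative. Of these 3 lists no gene passed in the interaction. Hp and Psmb9 fell and Flvcr2 rose in the HFD arm, against 0.244% and 0.226% of all probe sets.

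Of 40 cell cycle genes 37 had a negative interaction, with a median of -0.40, but the median diet difference was -0.72 at 2 months and also -0.58 at 4 months, against -0.12 at 1 month, and 0 genes had an unadjusted p under 0.05. The diets overlapped at 4 months: the mean of 37 of these genes was 0.89, -0.57 and 1.22 on the ND arrays and -0.59, -0.02 and 0.36 on the HFD arrays. With the cell cycle mean as a covariate 15 probe sets passed in the HFD arm in place of 102, and 1 in the interaction.

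Collagens, proteoglycans, ribosomal proteins and oxidative phosphorylation genes had medians close to 0, at -0.04, 0.11, -0.14 and -0.04. Negative were 10 of 18 collagens, 13 of 28 proteoglycans, 13 of 14 ribosomal proteins and 16 of 24 oxidative phosphorylation genes. Under the macrophage covariate the collagen median was -0.27, with 14 of 18 negative, and the proteoglycan median turned to -0.24, with 18 of 28 negative. Within them Col14a1 was the collagen that fell in the HFD arm, where 0.244% of all probe sets fell. Vcan, a large matrix proteoglycan, fell by 1.27 there (limma, adjusted p = 0.0341). Of the angiogenic factors Fgf7, a growth factor for epithelial cells, fell by 1.15 in the HFD arm (limma, adjusted p = 0.0413). The median interaction of the 18 angiogenic genes was -0.16, with a range from -3.26 to 0.92. The 16 stromal surface markers had a median of 0.11, with a range from -1.44 to 1.80. An unadjusted interaction p under 0.05 was found in limma for 7 angiogenic genes (38.9%) and 5 stromal markers (31.25%). Among all named genes the share was 10.1%. No gene of these 2 lists passed in the interaction.

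The remaining contrasts of diet and time gave no calls. For the diet difference at 4 months against that at 1 month, limma called 0 probe sets (0%), with 708 (3.26%) at an unadjusted p under 0.05. Tested against 1 month alone, the 2-month difference gave 0 calls with a lowest adjusted p of 0.289 (1455 unadjusted, 6.7%), and against 4 months alone 0 calls with a lowest adjusted p of 0.0520 (2060 unadjusted, 9.48%). The F test of any difference between the 3 times gave 0 calls, with a lowest adjusted p of 0.132 and 1474 probe sets (6.78%) at an unadjusted p under 0.05.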

How the data were processed

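Total RNA was measured on 18 Affymetrix rat expression arrays. The authors deposited linear probe set intensity values, summarised with RMA per the submitters' processing notes, which give no version. The column of ND 1-month replicate 1 was moved down by its 1343 empty cells at the end (its correlation with the other arrays' mean was 0.0909 before and 0.990 after), so 1066 tested probe sets have no value on it. Log2 was taken by this re-analysis of the deposited intensities. Controls and the dimmest 30% of probe sets (mean log2 of 3.22 or less) were left out. Group means of all arrays were fitted in limma 3.58.1 (R 4.3.3), with two-sided tests and Benjamini-Hochberg adjustment over 21729 probe sets. A gene is represented by its brightest tested probe set.

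Named genes were those passing, up to 12 each way, filled to 5 by moderated t where fewer passed, plus up to 3 members of a described list and members given for their role; the HFD arm followed the same rule. Symbols came from the platform annotation (20832 of 31099 probe sets with 1 symbol). The comparison, the lists and the rules were chosen with earlier results of these data known. The fit was tested on simulated data with noise drawn independently for each probe set. Such data lack variation shared between genes, so they do not measure false calls on these arrays. Replicate numbers did not pair the arrays (9 correlations of deviations, -0.571 to 0.44, 3 above 0.1). Alternatives covered the filter, normalization, variance model, array weights, covariates and leaving out each array. Precision is limited by 3 arrays per group.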

Additional observations from a re-analysis of the deposited data

Results flagged for a closer look

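The diet difference at 2 months differed from that at 1 and 4 months by a direct test of the difference (limma, adjusted p under the threshold) at 5 probe sets. These were the brightest Sfrp1 probe set, at -3.83 log2 units, a second Sfrp1 probe set at -4.05, Ccdc71l at 1.22, and the unnamed probe sets 1379465_at at 3.17 and 1392068_at at -4.65. The adjusted p-values lay between 0.0497 and 0.0499.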

How the results depend on the processing

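In the interaction 5 probe sets passed. The count was 0 with no intensity filter, quantile normalization, the robust variance model, the replicate block, the macrophage covariate, probe sets averaged per gene, a minimum change of 1.5-fold, the shifted column as deposited, and 2 months against 1 month or 4 months alone. It was 1 with the cell cycle covariate, 838 with array weights and 545 with ND 1-month replicate 1 and ND 2-month replicate 3 both left out. Leaving out 1 array gave 0 to 144. The cause of these moves was not tested.

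In the HFD arm 102 passed. The count was 1955 with array weights, 15 with the cell cycle covariate, 66 with probe sets averaged, 0 with the minimum change and 0 with the column as deposited, and 0 to 715 with 1 array left out. The replicate block, fitted although the numbers do not pair the arrays, gave 106. In the ND arm 0 passed except 89 with ND 1-month replicate 1 and ND 2-month replicate 3 both left out. Each of them was the array of its group furthest from the others in the macrophage list mean. The F test gave 0 calls, but 115 with array weights and 0 to 32 with 1 array left out.

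Sfrp1 kept its sign in all 36 alternatives, from -4.48 to -3.34, and passed in 10 of them, and Ccdc71l from 0.92 to 1.51, passing in 9. With the column as deposited, the interaction reversed for Tagln (-1.56), Tpm1 (-1.21), Col5a2 (-1.54) and Rnd3 (-0.17). Quantile normalization and median centring left the median of all named genes between -0.02 and 0.02. Arrays give no read depth, and readings near 3.22 log2 units, such as those of Rbm11 and Frzb, lie close to the level of the filter.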
